A study of Rattus norvegicus with 36 samples.

Results

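Chemokines are small secreted proteins that guide leukocytes along concentration gradients, and their receptors are G protein-coupled receptors on the cells that migrate. The set described here holds the genes of the deposited rat lung count table whose names begin with Ccl, Cxcl, Cx3c, Ccr or Cxcr, leaving out Ccl5, Cxcl10 and the Ccl21 genes. It came to 31 of 27308 genes, 22 ligands and 9 receptors. The rule itself uses names alone, but the set was chosen with earlier results of these data known. Of these, 23 genes had enough counts to be tested, 16 ligands and 7 receptors, and the other 8 are described by their counts.

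The ligands fall into families named by the spacing of their first cysteines, CC, CXC and CX3C, and each family binds its own group of receptors. Many are made by macrophages, epithelium or endothelium only upon stimulation, whereas Cxcl12 is a homeostatic ligand of stromal and endothelial cells that retains and recruits cells bearing Cxcr4. In the hypoxic lung, inflammatory cells collect around remodelling pulmonary vessels, and chemokines such as Ccl2, Cx3cl1 and Cxcl12 have been studied there.

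The lungs came from adult, age-matched male and female rats of 200 to 240 g, on a Sprague Dawley background. All arms shared 1 genotype, in which CRISPR-Cas9 had replaced the rat copy of Slc39a12, which encodes the zinc transporter ZIP12, with the human one. In the first arm, rats breathed 10% oxygen at normal pressure for 2 weeks and received APL-9796, an antibody to ZIP12, at 10 mg/kg by intraperitoneal injection from 48 h before hypoxia and then every 3 days. The second arm had the same hypoxia and dosing with a control IgG, and the third was kept in normoxia. Each arm held 12 libraries, 6 from males and 6 from females. No antibody is named for the normoxic rats, and effects of low oxygen and of IgG itself cannot be told apart where hypoxia with IgG is set against normoxia. Whether every library is from its own rat is not stated either, so the p-values here cover only the spread among libraries, which may be technical. In bulk lung RNA, fewer cells of a type and less RNA per cell cannot be told apart.

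A library held between 6.07 M and 20.8 M counts, with a median of 11.1 M. Levels are given as CPM, counts scaled to a normalized library total of 1000000 (1 M), and log2 fold changes carry their standard error. FDR stands for the adjusted p-value of edgeR's quasi-likelihood test over all 15570 genes tested, and a gene was called below 0.05. Lung markers were present throughout, with 5 alveolar type I markers summing to between 3386 and 6734 CPM and 7 endothelial markers to between 3116 and 4590 CPM. A group of 3 hypoxic libraries was set apart for raised fat or muscle genes (male hypoxia IgG 6, female hypoxia IgG 11 and male hypoxia APL-9796 5). Male hypoxia IgG 6 had the highest summed adipocyte and muscle markers with IgG, 639 and 528 CPM. With APL-9796, the highest muscle sum was in male hypoxia APL-9796 5, at 2135 CPM. The highest adipocyte sum with APL-9796, 303 CPM, was in male hypoxia APL-9796 4, which is not among the 3. Among normoxic libraries, female normoxia 8 had the highest summed type I and club cell markers, and female normoxia 9 the highest type II, lymphatic, neutrophil and NK markers. By the names of their read files, libraries fell into 3 batches with 26, 9 and 1 libraries, unevenly spread over the groups. These batches are taken here as sequencing runs. Of the IgG libraries, 5 from males but only 2 from females were in the largest run, called run A here.

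The promoters of the ligand and receptor that form one signalling pair, and of the ligand with the smallest p between the hypoxic arms, are shown because hypoxia-inducible factors bind a short core motif, and Cxcl12 rose while Cxcr4 was not called. The capitals mark the core ACGTG or GCGTG, which appears as CACGT or CACGC where it lies on the other strand. Each sequence runs from 250 bases before to 50 bases after the gene's start, on the gene's strand, from RefSeq on the rat assembly GRCr8, at chr4:152060531-152060830 on the plus strand for Cxcl12, chr13:42634239-42634538 on the minus strand for Cxcr4 and chr9:91836909-91837208 on the plus strand for Ccl20.
Cxcl12: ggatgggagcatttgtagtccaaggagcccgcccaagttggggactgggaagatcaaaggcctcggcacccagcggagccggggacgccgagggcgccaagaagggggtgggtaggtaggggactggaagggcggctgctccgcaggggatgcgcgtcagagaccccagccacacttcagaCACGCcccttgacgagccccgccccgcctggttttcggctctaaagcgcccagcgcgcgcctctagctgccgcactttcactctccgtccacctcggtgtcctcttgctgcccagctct
Cxcr4: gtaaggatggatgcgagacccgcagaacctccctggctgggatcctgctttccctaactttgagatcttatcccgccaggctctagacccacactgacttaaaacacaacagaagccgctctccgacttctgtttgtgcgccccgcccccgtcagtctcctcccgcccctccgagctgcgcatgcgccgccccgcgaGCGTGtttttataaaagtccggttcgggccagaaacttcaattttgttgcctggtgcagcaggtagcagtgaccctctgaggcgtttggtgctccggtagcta
Ccl20: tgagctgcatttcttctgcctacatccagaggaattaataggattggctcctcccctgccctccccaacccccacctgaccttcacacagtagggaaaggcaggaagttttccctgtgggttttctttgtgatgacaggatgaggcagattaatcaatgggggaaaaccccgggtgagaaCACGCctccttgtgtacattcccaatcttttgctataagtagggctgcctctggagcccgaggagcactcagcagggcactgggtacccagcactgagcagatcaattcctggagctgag
Each of the 3 windows held 1 match. Over the set, 23 genes had an entry in the RefSeq promoter table, and 10 of them held the core on either strand, 7 of 17 ligands and 3 of 6 receptors. Of all 27457 promoters of the same length in that table, 42.9% held it. A match describes letters in the window and is not a binding site.

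**Figure D1:**
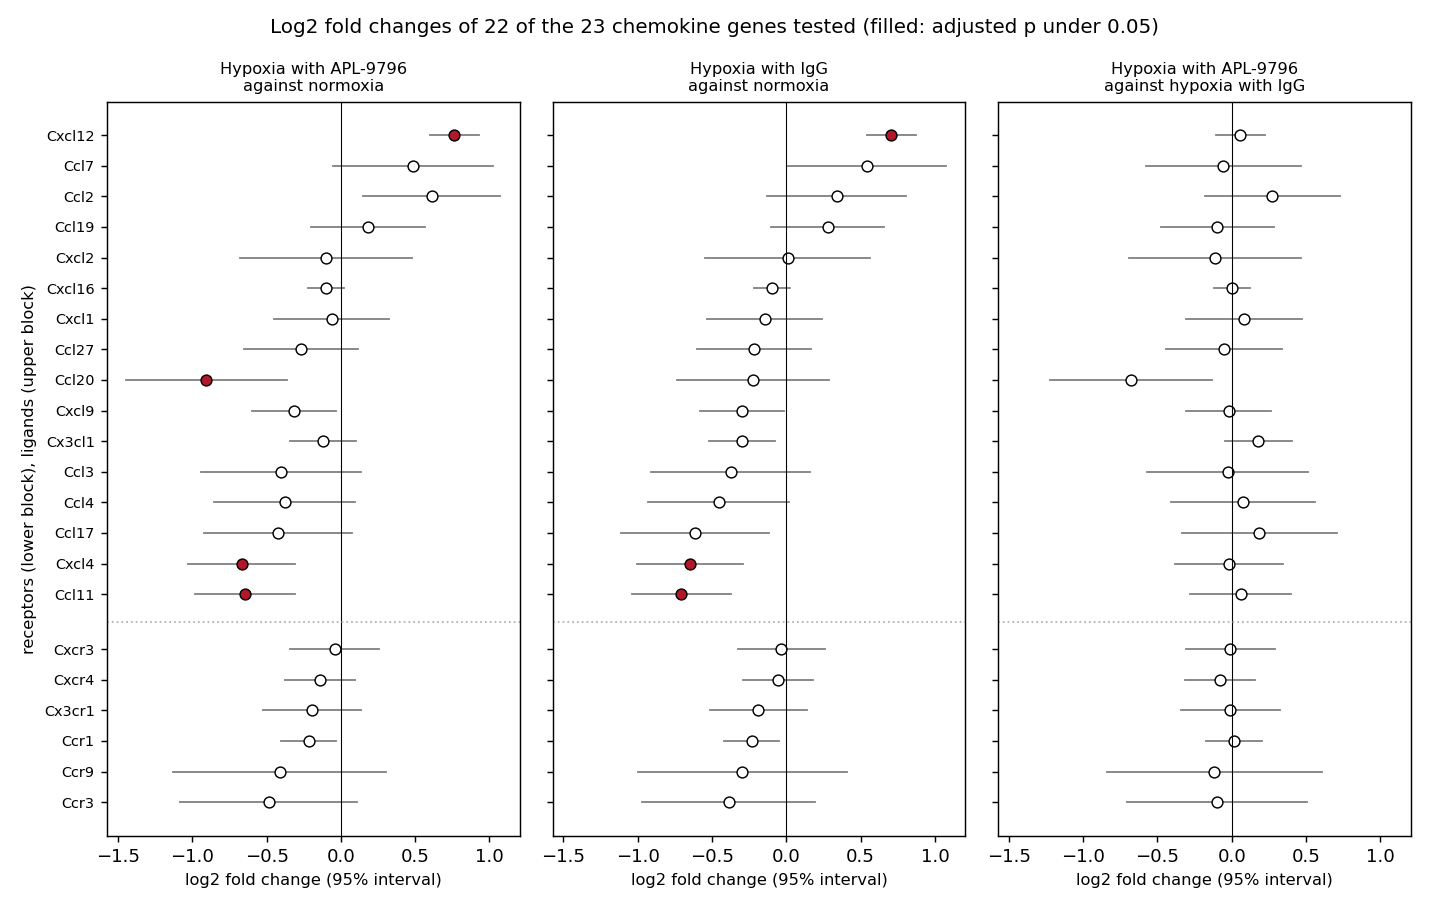
Log2 fold changes of the 16 ligands tested and of 6 receptors, in hypoxia with APL-9796 against normoxia, hypoxia with IgG against normoxia, and hypoxia with APL-9796 against hypoxia with IgG. Points are fitted values, lines 95% intervals and filled points FDR under 0.05; Cxcl12 alone is filled on the right of 0, and no point is filled in the comparison of the 2 hypoxic arms.

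In the fit of all 36 libraries, hypoxic lungs held more Cxcl12 and less Ccl11 and Cxcl4 RNA than normoxic ones, whichever antibody was given. No receptor was called. With IgG, 1 of 16 ligands tested rose (Cxcl12) and 2 fell (Ccl11 and Cxcl4). Over all genes tested, 12.5% were called in that comparison, 6.31% higher and 6.19% lower, so the share of ligands called was near the background. With APL-9796, 1 of 16 ligands rose against normoxia (Cxcl12) and 3 fell (Ccl11, Cxcl4 and Ccl20), beside 18% of all genes, 9.08% higher and 8.93% lower. The median log2 fold change of the ligands was -0.19 with APL-9796 and -0.22 with IgG, against -0.02 over all genes in each comparison. Both comparisons share the normoxic libraries. In run A alone, Cxcl12 was the 1 ligand called in hypoxia with IgG against normoxia. Without female normoxia 8 and 9, Cxcl4 was called in neither hypoxic arm, and Ccl11 only with IgG. In males alone, neither Ccl11 nor Cxcl4 was called in either hypoxic arm. Cxcl12 kept its call in all of these.

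Cxcl12, the ligand of Cxcr4 and of the scavenging receptor Ackr3, had the smallest FDR of the set in both comparisons with normoxia. Its lowest, median and highest levels were 191, 234 and 390 CPM in hypoxia with APL-9796, 188, 237 and 302 CPM in hypoxia with IgG, and 132, 147 and 174 CPM in normoxia. All 24 hypoxic libraries lay above all 12 normoxic ones, and the hypoxic arms overlapped each other. The mean was 252 ± 56.8 CPM with APL-9796, 243 ± 32.9 CPM with IgG and 148 ± 14.9 CPM in normoxia (SD, n = 12 each). Against normoxia the log2 fold change was 0.76 ± 0.08 with APL-9796 (FDR 1.1e-08) and 0.71 ± 0.08 with IgG (FDR 5.9e-08), a 1.70-fold and a 1.63-fold higher level. It was called in both comparisons under each of the 47 alternative settings, at log2 values of 0.70 to 0.81 with APL-9796 and 0.68 to 0.75 with IgG.

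Cxcl12 was higher in hypoxia in each sex. In males, Cxcl12 averaged 269 ± 66.3 CPM with APL-9796, 264 ± 28.2 CPM with IgG and 158 ± 14.3 CPM in normoxia. In females the means were 235 ± 44.7 CPM with APL-9796, 221 ± 21.3 CPM with IgG and 139 ± 7.21 CPM in normoxia (SD, n = 6 each). The effect in males minus that in females was 0.07 ± 0.16 on the log2 scale for hypoxia with IgG against normoxia (FDR 0.87), with a 95% interval of -0.26 to 0.40. Markers of fibroblasts and endothelium, which make Cxcl12, are given beside it. Of 5 fibroblast markers, 2 rose in each hypoxic arm against normoxia, Col1a1 and Col1a2, and none fell (none was called with IgG in run A alone), and their summed level ran from 1074 to 2512 CPM with APL-9796, 1518 to 3284 CPM with IgG and 626 to 2149 CPM in normoxia. Of 7 endothelial markers, 3 rose and 2 fell with APL-9796, and 3 rose and 3 fell with IgG. Over all genes, 18% were called with APL-9796 and 12.5% with IgG. The part of fibroblasts and endothelium in the Cxcl12 difference was not tested.

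**Figure D2:**
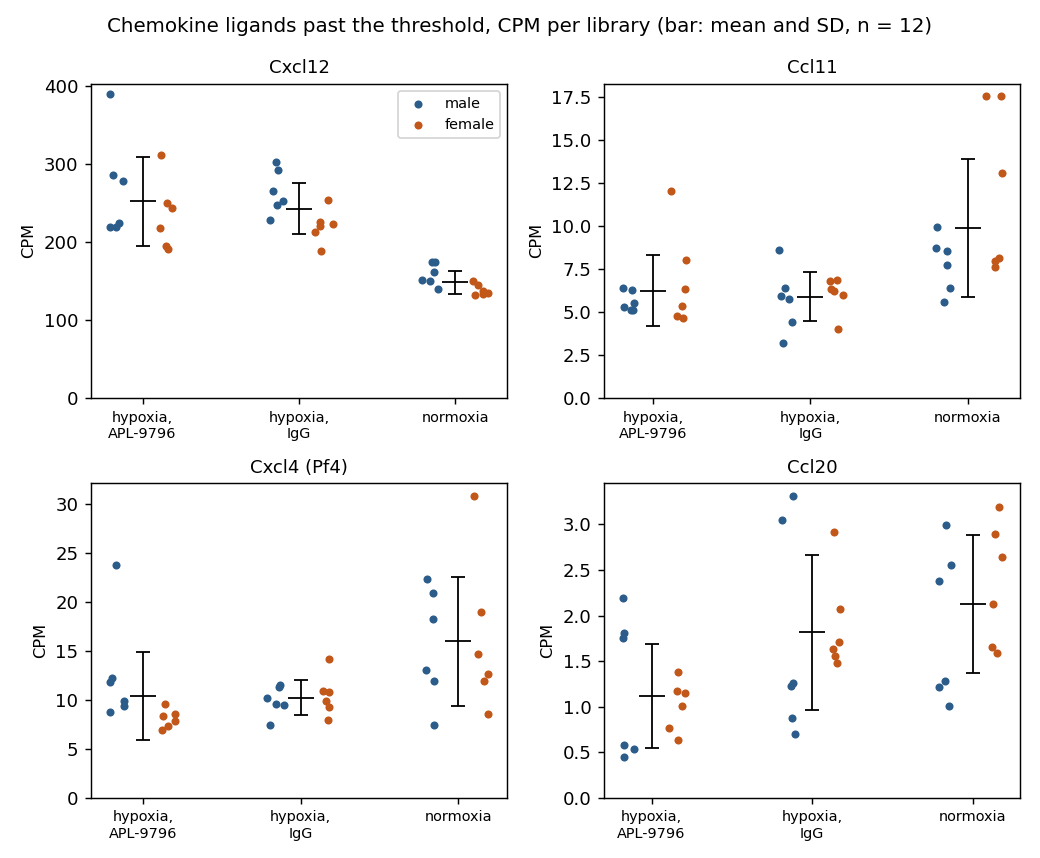
Levels in CPM (linear axes from 0) of the 4 ligands called in a comparison with normoxia, 1 point per library, in hypoxia with APL-9796, hypoxia with IgG and normoxia. Bars give the mean and SD of 12 libraries; the Cxcl12 points of both hypoxic arms lie above every normoxic point, while the other 3 ligands overlap between arms.

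Ccl11, or eotaxin, attracts eosinophils through Ccr3. Its lowest, median and highest levels were 4.68, 5.44 and 12.1 CPM with APL-9796, 3.21, 6.13 and 8.60 CPM with IgG, and 5.58, 8.37 and 17.6 CPM in normoxia. The arms overlapped, although 7 of 12 libraries with APL-9796 and 3 of 12 with IgG lay below every normoxic one. Ccl11 fell by 0.64 ± 0.16 on the log2 scale with APL-9796 (FDR 0.0054) and by 0.71 ± 0.16 with IgG (FDR 0.0027) against normoxia. The highest normoxic values came from female normoxia 9 and 8. Without those 2 libraries, the log2 fold change was -0.42 with APL-9796 (FDR 0.070) and -0.48 with IgG (FDR 0.036), and in run A alone it was -0.59 (FDR 0.048) and -0.60 (FDR 0.145) in the same order of arms. Of 5 mast cell and eosinophil markers tested, none was called in either comparison by edgeR, and their median log2 fold change was 0.32 in each hypoxic arm. In each comparison 1 had an unadjusted p under 0.05, Kit, which was lower in hypoxia. The summed level of the 7 listed markers with a row ran from 156 to 264 CPM with APL-9796, 149 to 341 CPM with IgG and 173 to 316 CPM in normoxia.

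Cxcl4, now named Pf4 or platelet factor 4, is stored in the granules of platelets. It was at 6.95, 9.06 and 23.7 CPM with APL-9796 (lowest, median and highest), 7.47, 10.0 and 14.2 CPM with IgG, and 7.47, 13.9 and 30.8 CPM in normoxia. The arms overlapped, and the normoxic values spread the most. Cxcl4 fell by 0.67 ± 0.18 on the log2 scale with APL-9796 (FDR 0.0077) and by 0.65 ± 0.18 with IgG (FDR 0.011) against normoxia. Without female normoxia 8 and 9 the log2 fold change was -0.41 with APL-9796 (FDR 0.097) and -0.39 with IgG (FDR 0.115). In run A alone it was -0.83 with APL-9796 (FDR 0.0083) and -0.71 with IgG (FDR 0.096).

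The platelet markers Clec1b and Treml1 together reached 2.30 to 10.7 CPM with APL-9796 (median 3.51), 2.73 to 5.70 CPM with IgG (median 3.60) and 3.14 to 15.2 CPM in normoxia (median 7.72). Clec1b, a receptor on platelets, fell by 0.86 ± 0.22 on the log2 scale with APL-9796 (FDR 0.0056) and by 0.93 ± 0.22 with IgG (FDR 0.0030), and Treml1 fell with IgG (log2 -1.13, FDR 0.013). With APL-9796, Treml1 differed by -0.78 from normoxia (FDR 0.071). In run A alone neither was called with IgG, at -0.89 for Clec1b (FDR 0.075) and -1.02 for Treml1 (FDR 0.19), and without female normoxia 8 and 9 Treml1 was at -0.93 with IgG (FDR 0.067). The highest sums within their arms came from male hypoxia APL-9796 4 and female normoxia 9, which also held the highest Cxcl4 of theirs. The part of platelet content in the Cxcl4 difference was not tested.

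Ccl20, which attracts dendritic cells and lymphocytes through Ccr6, rested on few counts, 142 with APL-9796, 243 with IgG and 288 in normoxia over 12 libraries each. Its lowest, median and highest levels were 0.448, 1.08 and 2.19 CPM with APL-9796, 0.696, 1.60 and 3.31 CPM with IgG, and 1.01, 2.26 and 3.19 CPM in normoxia. The arms overlapped, and 6 of 12 libraries with APL-9796 lay below every normoxic one. Against normoxia, Ccl20 fell by 0.90 ± 0.27 on the log2 scale with APL-9796 (FDR 0.016), whereas with IgG the difference was -0.23 ± 0.25 (FDR 0.61). Within run A alone the difference with APL-9796 was -0.72 (FDR 0.117). Of 4 alveolar type II markers tested, 4 fell with APL-9796 and 3 with IgG against normoxia (3 and 1 in run A alone and also without female normoxia 8 and 9). Over all genes, 18% were called with APL-9796 and 12.5% with IgG. The part of type II cells in the Ccl20 values was not tested.

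The comparison of the 2 hypoxic arms asks what the antibody did under hypoxia. No ligand and no receptor was called by edgeR, where 0% of all 15570 genes were called, and 1 ligand and no receptor had an unadjusted p under 0.05. DESeq2 and limma-voom also called none, with 1 and 2 members under that unadjusted p. Over all genes, 626 were under it by edgeR, 631 by DESeq2 and 2417 by limma-voom. The median log2 fold change was -0.01 for ligands and -0.01 for receptors, against 0.00 over all genes. The 95% interval reached 0.39 to either side of the estimate at the median ligand and 0.30 at the median receptor, and it was narrowest for Cxcl16, at 0.12.

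The 3 smallest p-values between the hypoxic arms belonged to Ccl20, Cx3cl1 and Ccl2. Ccl20 was lower with APL-9796 than the mean of IgG libraries of the same sex in 9 of 12 libraries, at a log2 fold change of -0.68 ± 0.27 (95% interval -1.22 to -0.13, unadjusted p 0.016, FDR 0.97). In run A alone, and without the 3 libraries with fat or muscle genes, 0 members had an unadjusted p under 0.05 here. Cx3cl1, or fractalkine, a membrane-anchored ligand of endothelium and epithelium, differed by 0.18 ± 0.11 (FDR 0.97) and Ccl2 by 0.27 ± 0.22 (FDR 0.97). For Cxcl12 the difference was 0.06 ± 0.08, with a 95% interval of -0.11 to 0.22.

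Cx3cl1 was at 23.5, 39.7 and 53.7 CPM with APL-9796 (lowest, median and highest), 22.9, 34.8 and 51.7 CPM with IgG, and 34.5, 43.0 and 60.0 CPM in normoxia. With IgG, 6 of 12 libraries lay below every normoxic one, against 2 of 12 with APL-9796. The log2 fold change against normoxia was -0.12 ± 0.11 with APL-9796 (FDR 0.48) and -0.30 ± 0.11 with IgG (FDR 0.069), neither past the threshold. For IgG it was called by limma-voom (log2 -0.36, FDR 0.023) and, at -0.34, without male hypoxia IgG 2 (FDR 0.034).

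Ccl2, or MCP-1, the main attractant of monocytes through Ccr2, was at 3.26, 5.10 and 12.0 CPM with APL-9796, 3.38, 5.0 and 8.62 CPM with IgG, and 1.08, 3.38 and 12.5 CPM in normoxia (lowest, median and highest). The normoxic values spanned those of both hypoxic arms. Against normoxia the log2 fold change was 0.61 ± 0.23 with APL-9796 (FDR 0.058) and 0.34 ± 0.23 with IgG (FDR 0.37). With APL-9796 it was called by DESeq2 (log2 0.62, FDR 0.040) and by limma-voom (0.81, FDR 0.0085), without the 3 libraries with fat or muscle genes (0.66, FDR 0.049) and without female normoxia 8 and 9 (0.75, FDR 0.033). Leaving out 1 library at a time called it for 7 of the 36 libraries, at FDR 0.016 to 0.048: female normoxia 9 and 10, male normoxia 2 and 5, female hypoxia APL-9796 12, and male hypoxia APL-9796 4 and 5.

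Cxcl16, a membrane-anchored ligand of Cxcr6 that also takes up oxidized lipoprotein, was at 93.7, 108 and 136 CPM with APL-9796, 90.4, 107 and 137 CPM with IgG, and 105, 112 and 150 CPM in normoxia (lowest, median and highest). The arms overlapped, and the log2 fold change was -0.10 ± 0.06 in each hypoxic arm against normoxia (FDR 0.26 with APL-9796 and 0.30 with IgG). Between the hypoxic arms its 95% interval was -0.12 to 0.12.

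Cxcl1 and Ccl3, attractants of neutrophils and of monocytes and lymphocytes, varied widely within arms. Cxcl1 was at 11.4, 20.8 and 32.8 CPM with APL-9796, 9.64, 21.7 and 27.3 CPM with IgG, and 12.7, 19.8 and 50.9 CPM in normoxia (lowest, median and highest). For Ccl3 these were 7.24, 12.6 and 21.7 CPM with APL-9796, 6.76, 11.7 and 26.6 CPM with IgG, and 5.87, 14.7 and 35.5 CPM in normoxia. Both genes overlapped between all arms, and neither was called, with log2 fold changes against normoxia of -0.06 with APL-9796 and -0.15 with IgG for Cxcl1, and of -0.40 and -0.37 in the same order for Ccl3.

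The 7 other ligands tested were Ccl4, Ccl7, Ccl17, Ccl19, Ccl27, Cxcl2 and Cxcl9, none of which was called in an arm comparison. Their log2 fold changes against normoxia ran from -0.42 (Ccl17) to 0.49 (Ccl7) with APL-9796 and from -0.61 (Ccl17) to 0.54 (Ccl7) with IgG. Ccl17, a ligand of Ccr4 made by dendritic cells, had 115 counts with APL-9796, 105 with IgG and 171 in normoxia. Without female normoxia 9, Ccl7, a monocyte attractant next to Ccl2 in the genome, was called in hypoxia with IgG (log2 0.77, FDR 0.048). Several members sit side by side in the RefSeq gene table of GRCr8: Ccl2, Ccl7, Ccl11 and Ccl12 follow each other on chromosome 10, as do Ccl3 and Ccl4, and Cxcl4, Cxcl7 and Cxcl5 on chromosome 14. In the first of these clusters Ccl11 fell in both hypoxic arms, while its neighbours Ccl2 and Ccl7 had positive fold changes that were not called. Ccl3 and Ccl4 had log2 fold changes of -0.40 and -0.38 with APL-9796 and -0.37 and -0.45 with IgG.

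**Figure D3:**
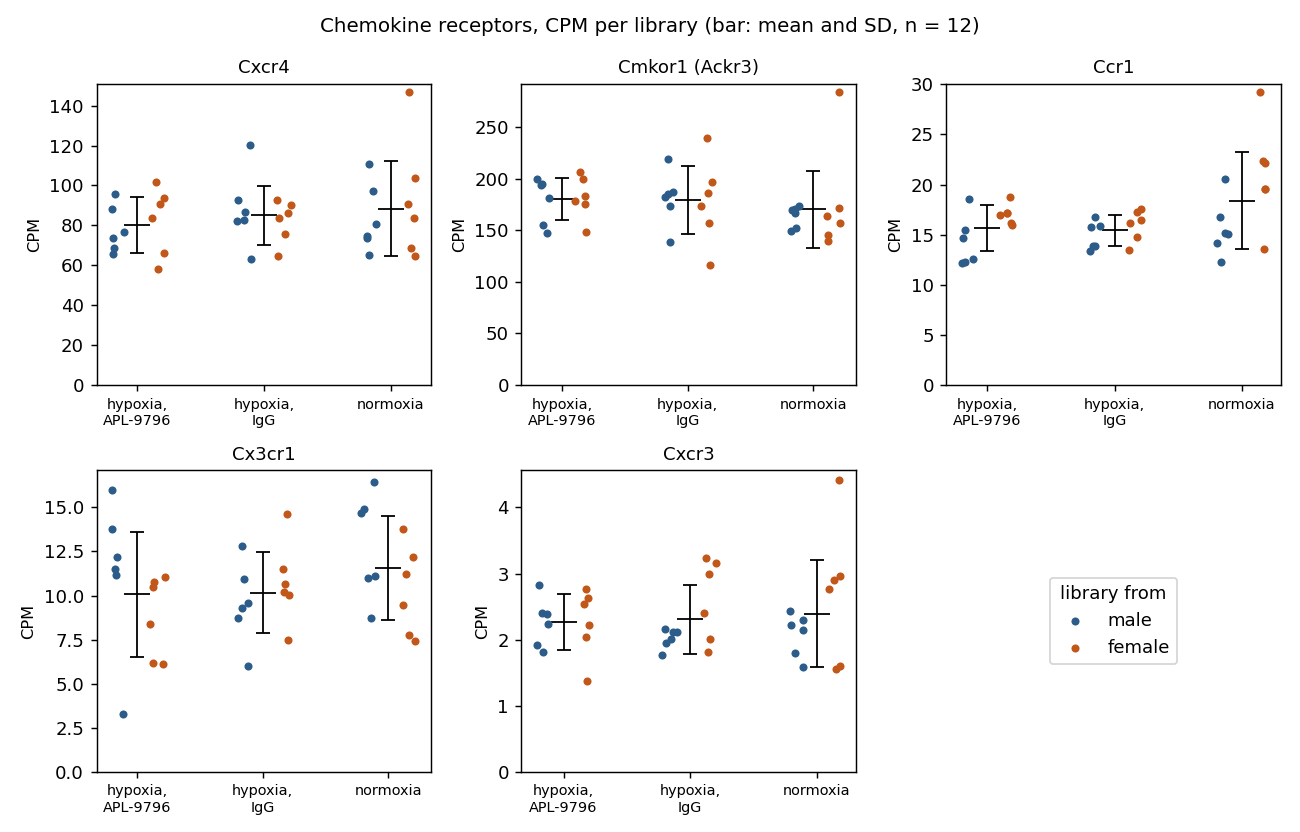
Levels in CPM (linear axes from 0) of 5 receptors, 1 point per library, in hypoxia with APL-9796, hypoxia with IgG and normoxia. Bars give the mean and SD of 12 libraries; all 5 overlap between the arms, and the Cxcr4 points run from 57.9 to 147 CPM.

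Among the receptors, none of the 7 tested was called by edgeR in an arm comparison. By edgeR, 1 receptor, Ccr1, had an unadjusted p under 0.05 in each comparison with normoxia. DESeq2 and limma-voom called none. Over all genes, edgeR called 18% with APL-9796 and 12.5% with IgG against normoxia, and 0% between the hypoxic arms. An unadjusted p under 0.05 was found for 4988 of 15570 genes with APL-9796 and 4038 with IgG against normoxia. In the main fit, all 7 receptors had a negative log2 fold change against normoxia in both hypoxic arms, which share the normoxic libraries. Their median was -0.20 with APL-9796 and -0.19 with IgG, against -0.02 over all genes. Over all genes, 8442 of 15570 were negative with APL-9796 and 8527 with IgG. The negative direction did not hold for every receptor under the 47 alternatives. The highest values of Cxcr3 were 0.06 with APL-9796 and 0.05 with IgG, and those of Cxcr4 0.04 and 0.07.

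Cxcr4, the receptor of Cxcl12, was not called in any arm comparison. Its levels were 57.9, 80.2 and 102 CPM with APL-9796, 63.0, 85.0 and 121 CPM with IgG, and 64.8, 82.2 and 147 CPM in normoxia (lowest, median and highest). All 3 arms overlapped. Its log2 fold change against normoxia was -0.14 ± 0.12 with APL-9796 (95% interval -0.37 to 0.10, FDR 0.44) and -0.06 ± 0.12 with IgG (-0.29 to 0.18, FDR 0.80).

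The other receptor of Cxcl12, Ackr3, is listed as Cmkor1 and so lay outside the naming rule. It was at 147, 182 and 207 CPM with APL-9796, 116, 184 and 239 CPM with IgG, and 140, 166 and 284 CPM in normoxia (lowest, median and highest). The arms overlapped, and its log2 fold change against normoxia was 0.08 ± 0.10 in each hypoxic arm (FDR 0.60 with APL-9796 and 0.65 with IgG).

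Ccr1, a receptor of Ccl3 and Ccl7 on monocytes and neutrophils, was at 12.2, 16.1 and 18.8 CPM with APL-9796, 13.4, 15.8 and 17.6 CPM with IgG, and 12.3, 18.2 and 29.2 CPM in normoxia (lowest, median and highest). The highest values were normoxic, though the arms overlapped. Against normoxia its log2 fold change was -0.22 ± 0.09 with APL-9796 (FDR 0.097) and -0.23 ± 0.09 with IgG (FDR 0.092). Both were called without female normoxia 7, at -0.26 with APL-9796 (FDR 0.023) and -0.28 with IgG (FDR 0.023).

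Cx3cr1, the receptor of Cx3cl1 on patrolling monocytes and cytotoxic lymphocytes, was at 3.28, 10.9 and 16 CPM with APL-9796, 6.03, 10.1 and 14.6 CPM with IgG, and 7.39, 11.2 and 16.4 CPM in normoxia (lowest, median and highest). Cxcr3, found on activated T and NK cells, was at 1.38, 2.31 and 2.83 CPM with APL-9796, 1.77, 2.12 and 3.24 CPM with IgG, and 1.56, 2.26 and 4.41 CPM in normoxia. Both receptors overlapped between all arms and were not called. Their log2 fold changes against normoxia were between -0.20 and -0.04 with APL-9796 and between -0.19 and -0.03 with IgG. The receptors Ccr3 of eosinophils and Ccr9 of gut-homing lymphocytes, had wide intervals, with log2 fold changes of -0.49 ± 0.29 and -0.41 ± 0.35 with APL-9796 and -0.39 ± 0.29 and -0.30 ± 0.35 with IgG against normoxia.

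Markers of the leukocytes that carry these receptors are given beside them. Of 6 NK and cytotoxic markers, 6 fell with APL-9796 and 4 with IgG against normoxia, beside 18% and 12.5% of all genes called. In run A alone and also without female normoxia 8 and 9, 5 fell with APL-9796 and 3 with IgG. Without the 3 libraries with fat or muscle genes these were 6 and 3. Their summed level was 52.1 to 99.0 CPM with APL-9796 (median 73.7), 63.2 to 106 CPM with IgG (median 81.4) and 75.6 to 167 CPM in normoxia (median 118). Of 8 T cell markers, 3 fell with APL-9796 and none was called with IgG. In run A alone and also without female normoxia 8 and 9, 2 T cell markers fell with APL-9796. Of 7 macrophage markers, 1 rose and 2 fell with APL-9796 and 1 fell with IgG. Of 5 monocyte markers, 1 rose and 3 fell with APL-9796 and 1 rose and 1 fell with IgG. Without female normoxia 8 and 9, 2 monocyte markers fell with APL-9796, and 1 macrophage marker also rose with IgG. Of 6 neutrophil and 6 B cell markers, none was called in either comparison. The median log2 fold change of the neutrophil markers was 0.18 with APL-9796 and -0.11 with IgG. Of 4 dendritic cell markers, 1 rose and 1 fell with APL-9796, and 1 rose and 2 fell with IgG. No dendritic cell marker fell in run A alone or without female normoxia 8 and 9. Among the markers with a row, Marco of alveolar macrophages had no count in hypoxia with APL-9796 or in normoxia, and no defining marker was at 0 in the T cell, monocyte or NK lists. The part of cell numbers in the receptor values was not tested.

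**Figure D4:**
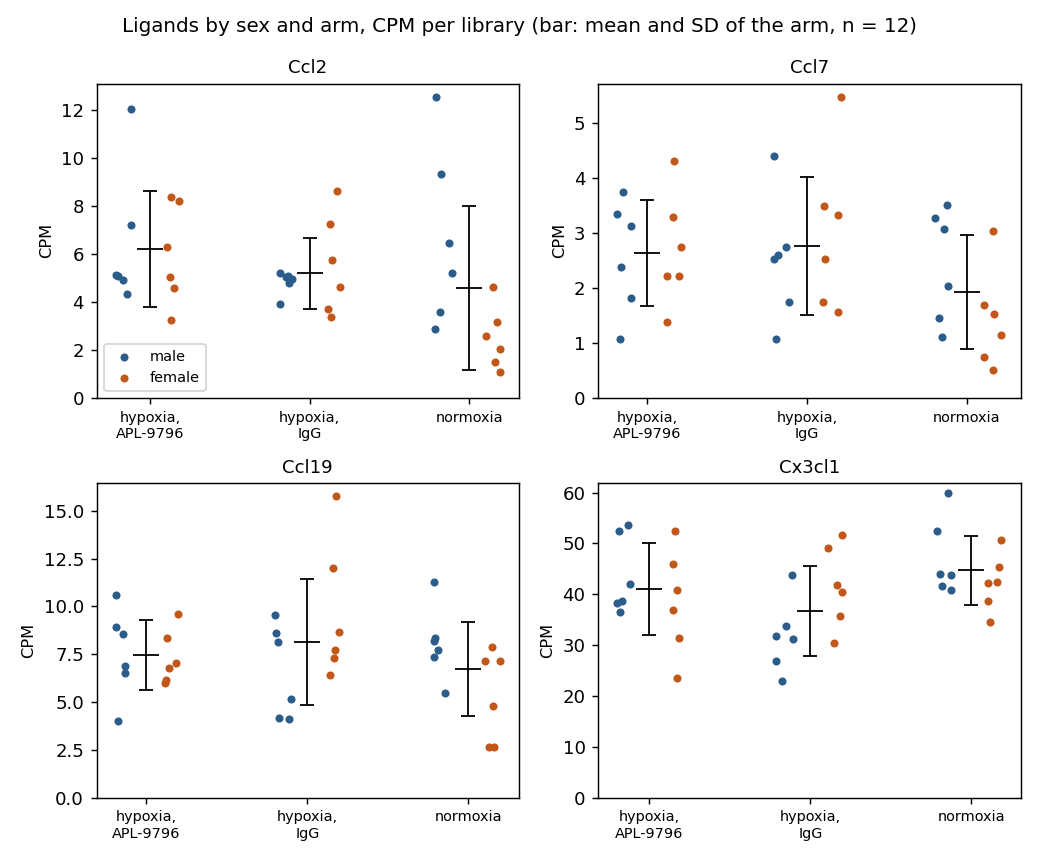
Levels in CPM (linear axes from 0) of Ccl2, Ccl7, Ccl19 and Cx3cl1 by arm, with males and females in separate colours, 1 point per library. Bars give the mean and SD of the 12 libraries of an arm; normoxic females have the lowest means of Ccl2, Ccl7 and Ccl19, at 2.50, 1.44 and 5.38 CPM.

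Males and females were compared over the 3 arms. By edgeR, 0 of 23 members were called, beside 1.65% of all genes (1.01% higher and 0.636% lower in males). An unadjusted p under 0.05 was found for 5 of 23 members, beside 2923 of all 15570 genes. The smallest FDR values were those of Ccr1, at -0.26 ± 0.08 in males minus females on the log2 scale (FDR 0.062), and of Cxcl12, at 0.22 ± 0.07 (FDR 0.077). DESeq2 called both, limma-voom called both and Ccr3 (log2 -0.77, FDR 0.043), and with sequencing run as a term Ccr1 and Ccr3 were called. Ccr3 was also called in run A alone (log2 -0.97, FDR 0.035), and Ccr1 without the 3 libraries with fat or muscle genes (log2 -0.31, FDR 0.039). Leaving out 1 library at a time called 0 to 1 member: Ccr1 without female normoxia 7 (FDR 0.0098), male hypoxia APL-9796 5 (FDR 0.032) or male normoxia 5 (FDR 0.039), and Cxcl12 without female hypoxia APL-9796 8 (FDR 0.035).

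The effects in males minus those in females were tested as an interaction. For hypoxia with IgG against normoxia, 0 of 23 members were called by edgeR, beside 0.0128% of all genes (0.00642% in each direction, higher and lower). An unadjusted p under 0.05 was found for 3 of 23, Ccl2, Ccl19 and Cx3cl1, beside 2480 of all 15570 genes. The share of members at that p was thus near the share of all genes. For the antibody under hypoxia, 0 of 23 were called beside 0% of all genes. There, 1 member had an unadjusted p under 0.05, Cx3cl1, beside 685 of all genes. DESeq2 called no member in either, with 3 and 2 unadjusted p-values under 0.05 beside 2588 and 685 over all genes. For the first it gave 18 of the 23 no adjusted p. Limma-voom called Ccl19 in the first (log2 -1.24, FDR 0.037) and none in the second.

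Ccl2 had the smallest p of these. In males it averaged 6.45 ± 2.91 CPM with APL-9796, 4.83 ± 0.480 CPM with IgG and 6.66 ± 3.67 CPM in normoxia. In females it averaged 5.96 ± 2.05 CPM with APL-9796, 5.56 ± 2.06 CPM with IgG and 2.50 ± 1.28 CPM in normoxia (SD, n = 6 each). Normoxic females were thus the lowest group and normoxic males the highest. The interaction was -1.57 ± 0.46 on the log2 scale (unadjusted p 0.0017, FDR 0.15), and under the alternatives its FDR ran from 0.069 to 0.53.

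Ccl19, a ligand of Ccr7 that guides dendritic cells and naive T cells, averaged 7.58 ± 2.29 CPM with APL-9796, 6.63 ± 2.42 CPM with IgG and 8.07 ± 1.88 CPM in normoxia in males. In females it averaged 7.33 ± 1.40 CPM with APL-9796, 9.66 ± 3.56 CPM with IgG and 5.38 ± 2.34 CPM in normoxia (SD, n = 6 each). Its interaction was -1.15 ± 0.38 (FDR 0.17). Cx3cl1 averaged 43.6 ± 7.54 CPM with APL-9796, 31.7 ± 7.11 CPM with IgG and 47.1 ± 7.53 CPM in normoxia in males, and 38.5 ± 10.3, 41.6 ± 7.95 and 42.3 ± 5.52 CPM in the same order of arms in females. Its interactions were -0.54 ± 0.22 for hypoxia with IgG (FDR 0.23) and 0.56 ± 0.22 for the antibody (FDR 0.96).

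Within the sexes, more members and more genes overall were called in females. In males alone, 1 member was called with APL-9796 against normoxia (Cxcl12) beside 4.19% of all genes (2.79% higher, 1.40% lower), and 2 with IgG (Cxcl12 higher, Cx3cl1 lower) beside 3.10% (1.88% higher, 1.22% lower). In females alone, 5 were called with APL-9796 (Cxcl12 and Ccl2 higher, Ccl11, Cxcl4 and Ccl20 lower) beside 22.6% of all genes (10.1% higher, 12.5% lower). Also in females, 5 were called with IgG (Cxcl12, Ccl2 and Ccl19 higher, Ccl11 and Ccr1 lower) beside 15.5% (7.23% higher, 8.27% lower). Without female normoxia 8 and 9, the female calls were Cxcl12 and Ccl2 with APL-9796 and Cxcl12, Ccl2 and Ccl7 with IgG, beside 918 and 968 of all genes in place of 3515 and 2413. Without the 3 libraries with fat or muscle genes, the calls with IgG were Cxcl12 and Ccl11 in females and Cxcl12 in males. In run A alone, females had Cxcl12 and Cxcl4 called with APL-9796, beside 1203 of all genes, and none with IgG, beside 99, where 2 IgG libraries remained. In males in run A alone, Cxcl12 was the 1 call in each hypoxic arm, and Cx3cl1 with IgG was at FDR 0.11. A call in one sex and not in the other is no test of a difference between them. By edgeR, no interaction was called among the members. Over all genes, 2 were called for hypoxia with IgG against normoxia.

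The 8 members below the low-count filter had few counts in every arm. Cxcl5 (now Cxcl6) had 79 counts with APL-9796, 58 with IgG and 88 in normoxia over 12 libraries each. Ccl12 had 48, 76 and 45 counts in the same order of arms, Ccl22, a ligand of Ccr4, had 36, 66 and 57, and Cxcl11, a ligand of Cxcr3, had 22, 31 and 20. Cxcl7 (now Ppbp), a second platelet chemokine, had 9 counts with APL-9796, 16 with IgG and 24 in normoxia. Ccl28 had 17, 15 and 15 counts in that order, the receptor Ccr1l1 had 28, 30 and 34, and Ccr7, which guides cells to lymph nodes, had 6, 13 and 3. With no filter, none of the 8 was called in an arm comparison by edgeR, and 1 unadjusted p was under 0.05, that of Ccr7 in hypoxia with IgG against normoxia (0.022, FDR 0.15). In that comparison 4553 of 22666 genes had an unadjusted p under 0.05 with no filter.

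Outside the naming rule, 8 chemokine genes were listed under older names and were picked out after the table's names had been seen. Of the 7 tested, none rose against normoxia, 2 fell with APL-9796 and 1 with IgG, beside 18% and 12.5% of all genes called. Il8ra (Cxcr1), a neutrophil receptor, fell by 0.33 ± 0.11 on the log2 scale with APL-9796 (FDR 0.026) and by 0.38 ± 0.11 with IgG (FDR 0.012), with means of 11.5 ± 1.73 CPM with APL-9796, 11.2 ± 2.10 CPM with IgG and 14.6 ± 4.24 CPM in normoxia (SD, n = 12 each). RGD1304717 (Cxcl17), a mucosal ligand, fell by 0.25 ± 0.09 with APL-9796 (FDR 0.045). None of the 7 was called in run A alone or without female normoxia 8 and 9, and without the 3 libraries with fat or muscle genes only Il8ra with IgG was. The neutrophil attractant Gm1960 (Cxcl3) was at 269 to 556 CPM with APL-9796, 381 to 569 CPM with IgG and 377 to 1181 CPM in normoxia and was not called.

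Other lists of related genes outside the set show how much of the wider system was called. Beside them, 18% of all genes were called with APL-9796 and 12.5% with IgG against normoxia. Of 7 other chemokine-related ligands and receptors tested, none was called with IgG against normoxia. Ackr3 is among them and is also counted above under its older name. With APL-9796, 2 fell, Xcl1 and Cd74. Xcl1, a ligand made by NK and T cells, was at log2 -0.78 (FDR 0.029). Cd74, which binds the cytokine Mif, was at -0.26 (FDR 0.020). Without female normoxia 8 and 9 neither was called, and Cd74 was at -0.12 (FDR 0.24). Of 12 signalling genes downstream of chemokine receptors, 3 rose (Prex1, Grk6 and Plcb2) and 3 fell (Gnai3, Rac2 and Pik3cg) with APL-9796, and 1 rose (Plcb2) and 2 fell (Arrb1 and Pik3cg) with IgG. With APL-9796, Grk6 was not called in run A alone (FDR 0.083), nor Plcb2 (0.072) and Gnai3 (0.114) without female normoxia 8 and 9. With IgG, Plcb2 was not called in either setting (FDR 0.34 and 0.079), nor Arrb1 without the 3 libraries with fat or muscle genes (0.054). Calls gained were Rgs18 with APL-9796 without those 3 libraries, and Arrb1 with APL-9796 and Grk6 with IgG without female normoxia 8 and 9. Both arms had a lower level of Pik3cg, a leukocyte phosphoinositide kinase (log2 -0.39 with APL-9796, FDR 0.012, and -0.34 with IgG, FDR 0.033), while Rac2, a leukocyte GTPase, fell with APL-9796 (log2 -0.38, FDR 0.00069) and was at -0.18 with IgG (FDR 0.12). Rac2 and Pik3cg kept their calls with APL-9796 in run A alone, without the 3 libraries with fat or muscle genes and without female normoxia 8 and 9, whereas Pik3cg with IgG was called in none of these (FDR 0.087 to 0.16). None of 7 genes of chemokine processing was called by edgeR, where Dpp4, the protease that trims Cxcl12, had an unadjusted p of 0.018 with APL-9796 and 0.033 with IgG, and the syndecan Sdc4 one of 0.027 with APL-9796, where it was called in run A alone. Of 10 leukocyte adhesion genes, Pecam1 rose in both hypoxic arms (log2 0.40 with APL-9796 and 0.33 with IgG, called in all 3 of those settings), and the adhesion molecules Icam1 and Vcam1 were not called, except Icam1 with APL-9796 without the 3 libraries with fat or muscle genes. Of 9 inducing cytokines and NF-kB genes, Nfkb1 and Stat6 rose in both and none fell, though Stat6 with IgG was not called in run A alone (FDR 0.069). In the comparison of the hypoxic arms, no gene of these lists was called. The 3 settings were applied to these lists and to the markers after the data had been seen.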

How the data were processed

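Lung RNA of 36 libraries in 6 groups was analysed. The authors deposited a table of raw whole-number counts by gene and a sheet of library descriptors, whose arm and sex matched the labels in 36 of 36 libraries. The submitters' processing notes list DESeq2 1.24.0; aligner, strandedness and build were not given in the sources used here. How reads of overlapping genes or close paralogs, such as Ccr1 and Ccr1l1, were shared out is therefore unknown. The line of totals held 0% of counts and was not used. Names were taken from the table, and 11640 of 27308 genes matched a current symbol in the RefSeq table of GRCr8, which also gave promoters and gene order.

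Here, edgeR 4.0.16 in R 4.3.3 was run on the counts (TMM, filterByExpr, robust quasi-likelihood test, Benjamini-Hochberg adjustment) in 1 model of 36 libraries with a term per group. Comparisons over both sexes weighted them equally. CPM used TMM-scaled library sizes, from totals of 6.07 to 20.8 M counts. DESeq2 1.42.0, limma-voom (limma 3.58.1), RLE size factors, 2 other filters, sequencing run, left-out libraries and a replicate block were alternatives. On simulated counts of 15489 genes for hypoxia with IgG against normoxia, 40.4% of 1.5-fold, 92.5% of 2-fold and 100% of 4-fold changes were recovered, with 3% false calls. The simulated spread was set by a formula, and no difference by sex, sequencing run or tissue content was built in. These rates therefore check the code and do not measure power or false calls in the real comparison. Python 3.11.15, pandas 2.3.3 and matplotlib 3.10.9 made tables and plots.

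The members and lists were chosen with earlier results of these data known. Values per library are given for members called in any comparison, the 5 ligands and 5 receptors with the most counts, and the 3 members with the smallest p between the hypoxic arms; of the other lists, called genes of the chemokine system are named, and marker lists are given as counts with a few genes chosen after their values were seen. For 1 receptor, which enters the counts and medians over the set, values are not reported here.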

Additional observations from a re-analysis of the deposited data

Results flagged for a closer look

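Within each group of 6 libraries, the 13 members given with values were checked for a library far from the other 5 on the log2 CPM scale (78 checks, of which chance flags about 1 in 20). There were 4 such values, and 2 of them came from male hypoxia APL-9796 4. In that library Cxcl4 was at 23.7 CPM, against 8.74 to 12.2 CPM in the other 5, and Cx3cr1 was at 3.28 CPM, against 11.2 to 16 CPM. The same library had the highest summed levels of its arm in type I, type II, club, lymphatic, platelet and adipocyte markers, with 10.7 CPM for the 2 platelet markers against an arm median of 3.51 CPM. Ccl11 in female hypoxia IgG 11 was at 4.005 CPM, against 6.01 to 6.88 CPM in the other 5, and that library was among those with fat or muscle genes. Ccl2 in male hypoxia IgG 2 was at 3.90 CPM, against 4.78 to 5.22 CPM. Leaving out male hypoxia APL-9796 4 changed 1 call among the members given with values, that of Ccl2 in hypoxia with APL-9796 against normoxia (log2 0.66, FDR 0.043).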

How the results depend on the processing

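Of the counts of called members over 47 alternatives, 408 stayed within 1.5 times their value, 12 went up from 0 and 1 went down beyond that. Most of these counts were 0 in the main fit, and a count can stay while its members change. Without female normoxia 8 and 9, Ccl2, Ccl20 and Cxcl12 were called with APL-9796 against normoxia, in place of Ccl11, Ccl20, Cxcl12 and Cxcl4. Against normoxia, 1 ligand in place of 3 was called with IgG and 3 in place of 4 with APL-9796 in run A alone, and 2 and 3 without female normoxia 8 and 9. Members differing by sex numbered 2 by DESeq2, 3 by limma-voom, 1 in run A alone, 2 with run as a term and 1 without the 3 libraries with fat or muscle genes, in place of 0, and limma-voom called 1 member in the interaction of sex with hypoxia and IgG. Leaving out 1 library at a time gave 3 to 4 ligands with IgG and 4 to 5 with APL-9796 against normoxia, 0 to 1 receptors in each, 0 to 1 members by sex, and 0 elsewhere. Over all genes, 725 in place of 1947 were called with IgG in run A alone; by sex, 607 by DESeq2, 1340 by limma-voom, 553 with run as a term, 141 in run A alone and 153 to 874 with 1 library left out, in place of 257; and in the interaction 53 by DESeq2, 431 by limma-voom and 0 to 560 with 1 library left out, in place of 2. DESeq2 called 1 gene between the hypoxic arms, in place of 0. Why these counts moved was not tested. Pairing by replicate number was not shown: over 36 same-numbered pairs, 9 correlations of deviations exceeded 0.1 (-0.24 to 0.34). Of 36 libraries, 9 correlated best with their own number. No chance rate was set beside these counts, so pairing is not excluded. With the replicate block, 3 ligands were called with IgG, 4 with APL-9796 and 0 between the hypoxic arms, and 0 receptors; the numbers are nested in sex, so that comparison had no blocked value. Depth limits the members with few counts, Ccl20 and those under the filter among them.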
